A study of Mus musculus with 68 samples.

Results

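The 10 genes described here were grouped as surfactant and alveolar type II genes, and they were followed through the lung with heart, kidney and liver as background. They were the 10 rows of the count table, of 56748 genes in all, named Sftpa1, Sftpb, Sftpc, Sftpd, Abca3, Lamp3, Slc34a2, Napsa, Nkx2-1 and Etv1, and each symbol occurred on 1 row. The study asked how organs respond at the RNA level to Egf, a growth factor that acts through the receptor tyrosine kinase Egfr. All mice were wild-type C57BL/6J females aged 10 weeks. Egf mice received 1 mg/kg Egf in phosphate-buffered saline into the retro-orbital sinus under isoflurane, and their organs were taken after 2 h or 6 h. Vehicle mice received the saline alone by the same route and for the same times, and untreated mice received no injection. The lung gave 4 Egf and 3 vehicle libraries at each time and 3 untreated libraries, 17 in all, and the other organs had the same layout, 68 libraries together. Libraries were made from polyadenylated RNA of pulverised whole organs without strand information. The labels do not say whether each library is a separate mouse, so p-values measure the spread between these libraries.

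Alveolar type II cells make pulmonary surfactant, the film of lipid and protein that lowers surface tension at the air-liquid interface of the alveolus. They store it in lamellar bodies, secrete it by exocytosis, take part of it up again, and serve as progenitors of alveolar type I cells. Surfactant proteins B and C are small hydrophobic peptides cut from larger precursors that spread the lipid film, whereas surfactant proteins A and D are collectins that bind microbes in the airspace. The transcription factor Nkx2-1 binds the promoters of several surfactant protein genes and is also made in other lung epithelial cells, thyroid and parts of the forebrain. In a whole-lung library, fewer type II cells and less RNA per cell cannot be told apart.

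On build mm39, the table places Sftpa1 on chromosome 14 from 40853739 to 40858409 and Sftpd on the same chromosome from 40894171 to 40907106. Sftpc lies farther along chromosome 14, from 70758389 to 70761521, and Sftpb on chromosome 6 from 72281594 to 72291354. Abca3 is on chromosome 17 from 24570924 to 24629175, Lamp3 on chromosome 16 from 19472128 to 19525125, and Slc34a2 on chromosome 5 from 53195423 to 53229006. Napsa spans chromosome 7 from 44221804 to 44236286, and Nkx2-1 and Etv1 are both on chromosome 12, from 56578743 to 56583693 and from 38829379 to 38920483. All 10 are annotated as protein-coding. The annotated overlap with the most reads was the antisense transcript Gm26973 at Nkx2-1, with 22 to 67 reads a lung library against 2261 to 3895 for Nkx2-1. Without strand information, reads from the 2 cannot be told apart.

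Nkx2-1 is known to bind promoter sites with the core CTCAAG, so the 250 bases before the annotated starts were searched for these letters on both strands (CTTGAG on the other). The RefSeq promoter table, on build GRCm38.p6, held 7 of the 10 genes with 8 starts in all. A match was found at 3 of the 8 starts, in Sftpa1, Sftpb and 1 of the 2 starts of Etv1, against 13.3% of 32851 promoter windows of the same length. These 3 windows are shown because Sftpa1 and Sftpb stand for the 2 sets within which most correlations between lungs were found, and Etv1 for the gene with the smallest p after Egf. Each is written 5′ to 3′ on the gene's strand, which is the plus strand in all 3, ending at the base before the start, with the searched letters in capitals. The first is chr6:72304360-72304609, the second chr14:41131538-41131787 and the third chr12:38783461-38783710.
Sftpb: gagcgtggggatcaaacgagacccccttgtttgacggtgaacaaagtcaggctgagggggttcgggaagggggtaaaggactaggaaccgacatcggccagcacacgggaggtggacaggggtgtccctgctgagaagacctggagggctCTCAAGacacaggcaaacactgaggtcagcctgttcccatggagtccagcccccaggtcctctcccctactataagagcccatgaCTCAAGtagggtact
Sftpa1: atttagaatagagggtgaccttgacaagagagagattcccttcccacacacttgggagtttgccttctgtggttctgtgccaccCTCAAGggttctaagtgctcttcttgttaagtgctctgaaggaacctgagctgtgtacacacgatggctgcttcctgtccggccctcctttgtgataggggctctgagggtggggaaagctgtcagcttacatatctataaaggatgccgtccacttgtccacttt
Etv1: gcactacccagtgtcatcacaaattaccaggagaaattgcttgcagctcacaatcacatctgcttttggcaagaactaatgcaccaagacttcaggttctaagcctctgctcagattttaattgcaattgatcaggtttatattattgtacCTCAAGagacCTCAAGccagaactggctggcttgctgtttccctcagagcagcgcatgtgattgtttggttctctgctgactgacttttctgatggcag
The first base of the match lay 100 and 15 bases before the start in Sftpb, 166 bases before it in Sftpa1, and 99 and 89 bases before it in Etv1. All 5 matches were on the strand shown. The windows of Abca3, Lamp3, Slc34a2, Nkx2-1 and the first start of Etv1 did not hold these letters. A match describes the letters only and is not a measured binding site.

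In lung, the 10 genes together took 34893 to 45817 CPM (reads per 1000000 counted) in each lung library, which is 3.49% to 4.58% of its counted reads. Per length, in transcripts per 1000000 (TPM), Sftpc stood highest with a median of 59645 TPM over the 17 lung libraries, within a range of 50681 to 70378 TPM. Sftpb followed at 7484 TPM and Sftpa1 at 6074 TPM. Their ranges overlapped, with Sftpb the higher in 15 of 17 libraries. Slc34a2, the sodium-phosphate cotransporter of the apical membrane, had a median of 1124 TPM, and Sftpd one of 943 TPM. Those ranges overlapped too, with Slc34a2 the higher in 14 of 17 libraries. Napsa, the aspartic protease napsin A that takes part in cutting the precursors of surfactant proteins B and C, had a median of 524 TPM. Lamp3, a membrane protein of lamellar bodies, had a median of 497 TPM and was the lower of this pair in 12 of 17 libraries. Nkx2-1 stood at 163 TPM and Abca3, the transporter that loads lipid into lamellar bodies, at 145 TPM, also with overlapping ranges. Etv1, an ETS-family transcription factor, had a median of 2.33 TPM and lay far below the rest, with Abca3 at least 35.4 times higher in every library. All 10 genes were read in each of the 17 lung libraries, as the label of the organ asks.

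**Figure D1:**
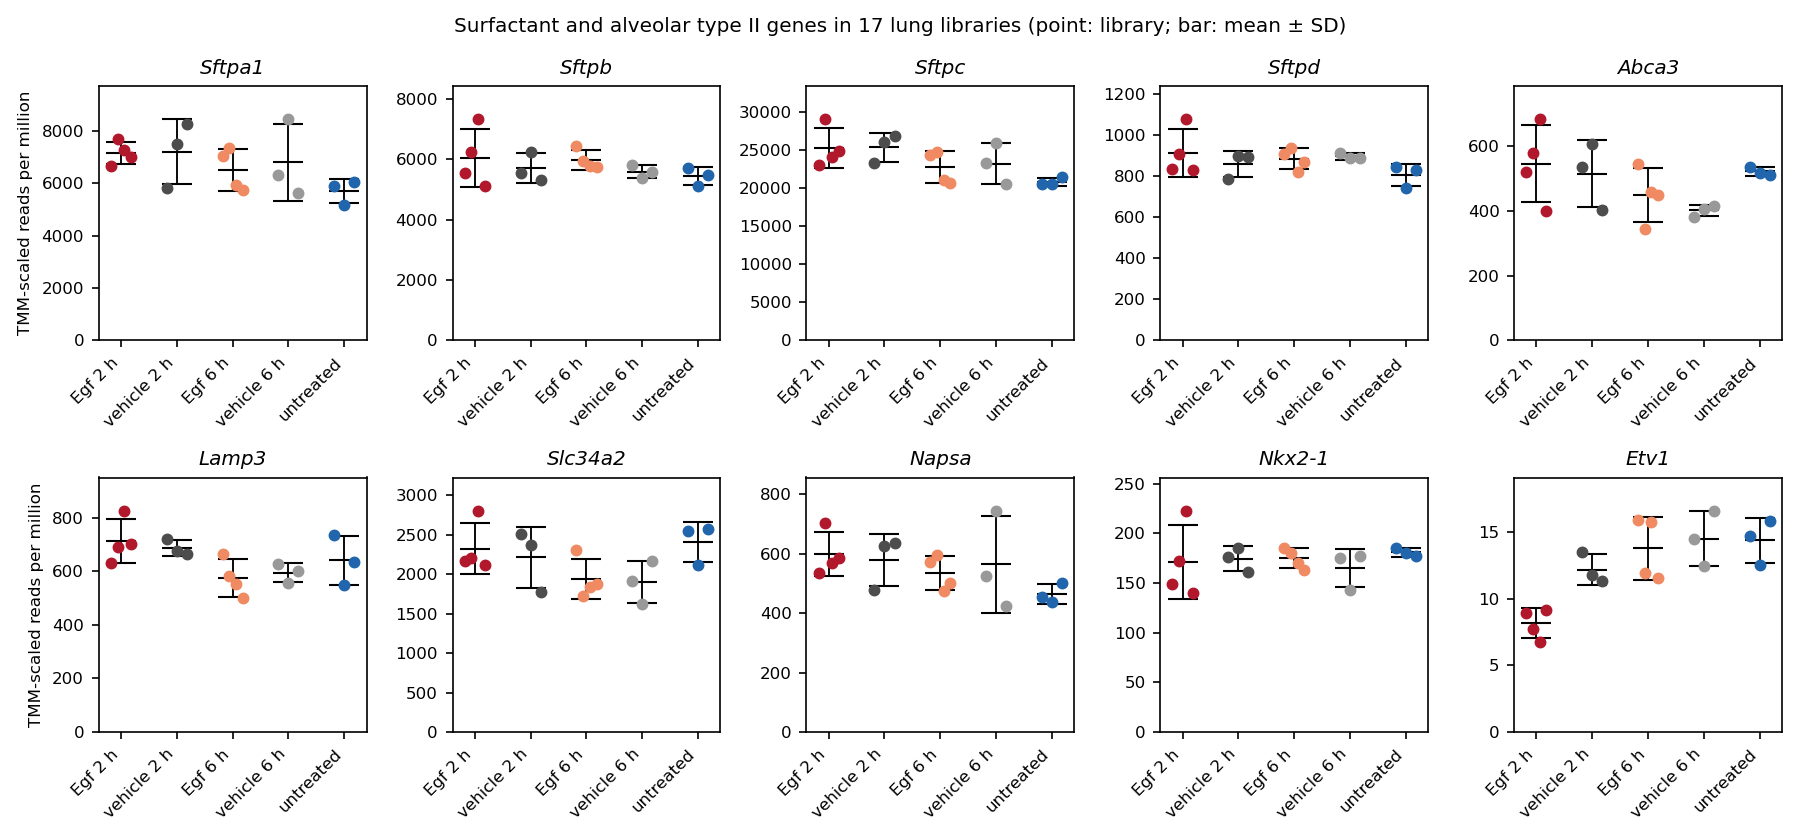
Each panel shows 1 gene, with TMM-scaled CPM on a vertical axis that starts at 0 and the 5 lung groups along the horizontal axis. Points are libraries and bars are the mean ± SD. Points of the groups overlap in most panels, whereas the 4 Etv1 points of Egf at 2 h, 6.76 to 9.20 CPM, lie below all others in that panel.

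Lung libraries held 16436692 to 21430960 counted reads. Rows with few reads were set aside, which left 16778 genes tested in lung, the 10 genes all among them with 118 or more reads in every lung library. Values below are CPM after TMM scaling, and a call is an adjusted p under 0.05 in edgeR's quasi-likelihood test over all genes tested. RNA of other organs or cells was seen in some lung libraries. Summed hepatocyte markers ran from 436 to 3567 CPM of library totals in the 4 Egf libraries at 2 h, against 28.9 to 657 CPM in the 3 vehicle libraries. They reached 29153 CPM in replicate 3 of Egf at 6 h, against 107695 to 143930 CPM in the 17 liver libraries. Red-cell transcripts summed to 16639 CPM in vehicle replicate 3 at 2 h and 15633 CPM in vehicle replicate 2 at 6 h, against 4177 to 10922 CPM in the other 15 libraries. Alveolar type I markers varied less, from 7905 to 9701 CPM.

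At 2 h after Egf, none of the 10 genes was called against vehicle, where 0.84% of all tested genes were called, 116 higher and 25 lower. Of the 10 genes, 6 had a positive log2 change, and their median log2 change was 0.05, against 0.00 for all tested genes. Leaving Etv1 aside, the log2 changes lay between -0.03 and 0.09. An unadjusted p under 0.05 was found for 1 of the 10, Etv1, against 8.48% of all tested genes. DESeq2 and limma voom each called that 1 gene of the 10, and 314 and 822 of all tested genes.

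Sftpc, the precursor of surfactant protein C, had 23089, 29037, 24060.3 and 24903 CPM in Egf lungs at 2 h, against 23237, 26057 and 26834 CPM in vehicle lungs. The highest and the lowest of these 7 libraries were both Egf lungs. Its log2 change was -0.01 with a 95% interval from -0.26 to 0.24. Sftpb had 5538, 6234, 7332 and 5109.9 CPM in Egf lungs, against 5553, 6261 and 5317 CPM in vehicle lungs. Again the Egf lungs enclosed the vehicle lungs, and the log2 change was 0.08 with an interval from -0.16 to 0.33.

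Among the collectins, Sftpa1 had 6648, 7674, 7249 and 7009.8 CPM in Egf lungs at 2 h, against 5826, 7499 and 8268 CPM in vehicle lungs. Here it was the vehicle lungs that enclosed the Egf lungs, with a log2 change of -0.01 and an interval from -0.33 to 0.31. Sftpd had 838, 908, 1079 and 832 CPM in Egf lungs, against 787, 899.8 and 897 CPM in vehicle lungs. Its highest value was Egf replicate 3, and the log2 change was 0.09 with an interval from -0.13 to 0.30.

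Of the genes of lamellar bodies, processing and transport, Abca3 had 519, 579.7, 683 and 399 CPM in Egf lungs at 2 h, against 535, 607 and 403 CPM in vehicle lungs, and its interval of the log2 change was the widest of the 10, from -0.28 to 0.45. Lamp3 averaged 712 ± 81.7 CPM in Egf lungs and 687 ± 30.5 CPM in vehicle lungs (SD, n = 4 and 3). Napsa averaged 598 ± 74.2 CPM in Egf lungs and 579.6 ± 88.6 CPM in vehicle lungs, and both genes overlapped between the groups. Slc34a2 had 2168, 2209, 2803 and 2112 CPM in Egf lungs, against 2502, 2363 and 1768 CPM in vehicle lungs. Of the Egf lungs, replicate 3 stood apart from the other 3, which lay within 2112 to 2209 CPM.

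Nkx2-1 had 148, 172, 223 and 140.3 CPM in Egf lungs at 2 h, against 176, 186 and 161 CPM in vehicle lungs, a log2 change of -0.03 with an interval from -0.31 to 0.25. Etv1 differed from the other 9 genes, and which lung cells it came from was not tested. It had 8.93, 7.75, 6.76 and 9.20 CPM in Egf lungs at 2 h, from 162, 138, 118 and 165 reads, against 13.5, 11.8 and 11.3 CPM in vehicle lungs, from 298, 208 and 197 reads. The 2 groups did not overlap, and each of the 4 Egf lungs also lay below each of the other 13 lung libraries, whose range was 11.3 to 16.6 CPM. Etv1 was the 1 gene of 10 without overlap between the groups, which held for 9.61% of all tested genes and, in the lower direction, for 3.96%. These shares refer to the Egf and vehicle lungs at 2 h. For the order against all 13 other libraries no share of all tested genes is given, so how common it is was not tested. The log2 change was -0.58 ± 0.16 (SE, n = 4 and 3), with an interval from -0.91 to -0.25. Its p was 0.00188, which became 0.123 after adjustment over all genes in edgeR's quasi-likelihood test, so it did not pass. An exact two-sided permutation test of its log2 CPM over the 35 splits of these 7 libraries gave p = 0.0571, the smallest that this design allows. The call depends on the tool, since DESeq2 and limma voom with quality weights did call Etv1, at log2 changes of -0.59 and -0.53 and adjusted p of 0.0333 and 0.0287, while all 14 other alternatives left it uncalled and the adjusted p over all 16 ran from 0.0287 to 0.426. The log2 change was -0.63 with the summed hepatocyte markers as a covariate and -0.64 without the lungs above 2000 CPM of these markers, an alternative chosen after seeing the data.

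**Figure D2:**
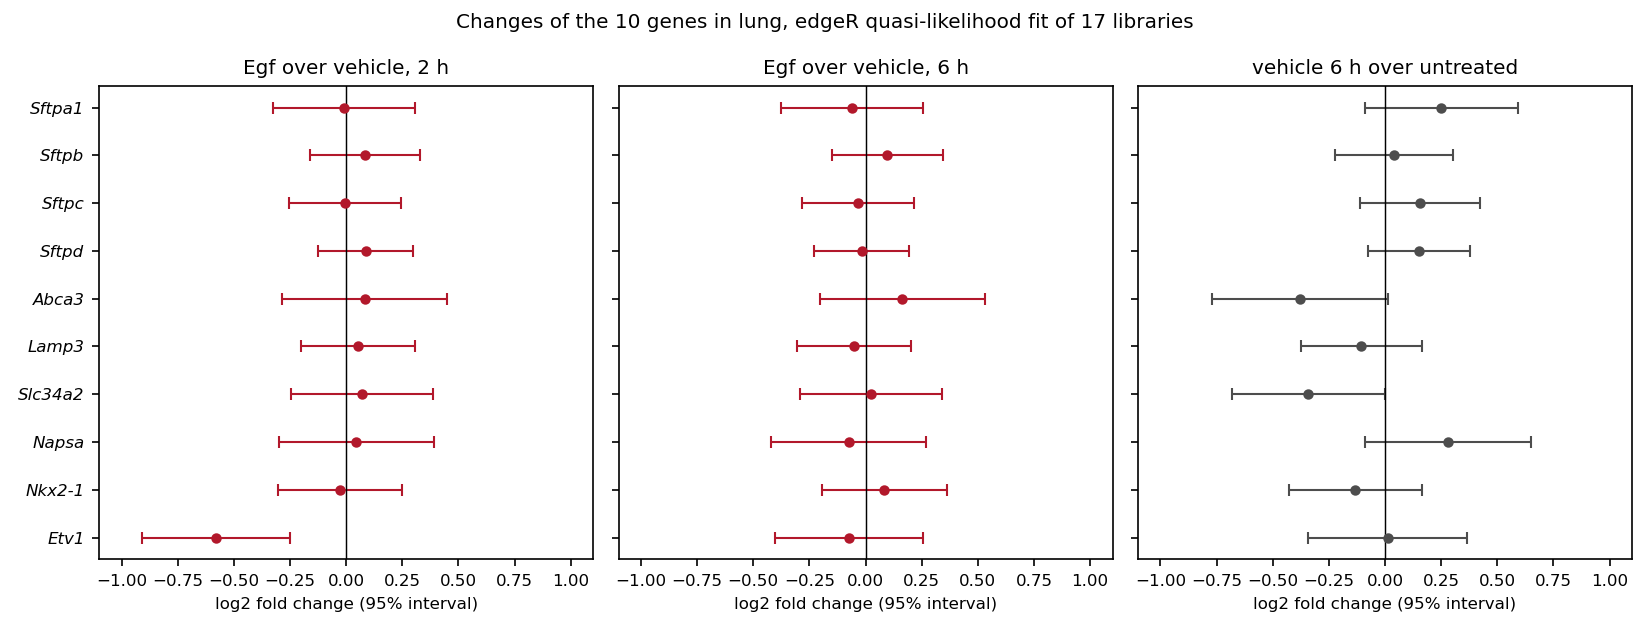
Points are log2 fold changes of the 10 genes in lung and lines their 95% intervals from edgeR's quasi-likelihood fit, for Egf over vehicle at 2 h (left) and 6 h (middle) and for vehicle at 6 h over untreated lungs (right). Intervals cross 0 in all rows of the first panel but Etv1, at -0.58, and in all rows of the middle panel.

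At 6 h after Egf, none of the 10 genes was called, and none of the 16778 tested genes was either in edgeR's test (0%). Before adjustment, p lay under 0.05 for 907 genes (5.41%), none of the 10 among them. Of all tested genes DESeq2 called 10, again without any of the 10 described here, and limma voom called 0. No gene of the 10 was free of overlap between the groups, against 4.88% of all tested genes. Log2 changes ran from -0.08 for Napsa to 0.16 for Abca3, and 4 of the 10 were positive. The intervals of the 10 genes reached from -0.42 at the lowest to 0.53 at the highest.

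Sftpc had 24311, 24719.5, 21115 and 20671 CPM in Egf lungs at 6 h, against 23257, 25916 and 20477 CPM in vehicle lungs. The vehicle lungs enclosed the Egf lungs. Abca3 had 545, 344, 459 and 449.8 CPM in Egf lungs, against 383, 407 and 414 CPM in vehicle lungs. The 4 Egf lungs held both the highest and the lowest value, and the log2 change of 0.16 had an interval from -0.20 to 0.53.

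Etv1 had 15.9, 11.9, 15.8 and 11.6 CPM in Egf lungs at 6 h, against 14.5, 12.5 and 16.6 CPM in vehicle lungs. The groups overlapped, with a log2 change of -0.07 and an interval from -0.40 to 0.26. The Egf effect on Etv1 at 6 h minus that at 2 h was 0.51 ± 0.22 on the log2 scale, with an interval from 0.04 to 0.98. Its p of 0.0365 became 0.832 after adjustment over all genes in edgeR's quasi-likelihood test, so a difference between the times was not called. None of the other 9 genes had an unadjusted p under 0.05 for this difference, against 5.73% of all tested genes, and 0.0417% of all tested genes were called.

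Injection with vehicle was compared with no injection, and none of the 10 genes was called at either time by edgeR, DESeq2 or limma voom. An unadjusted p under 0.05 was reached in edgeR's test by 1 gene of the 10 at each time, against 12.2% of all tested genes at 2 h and 9.8% at 6 h. At 2 h, 0.0656% of all tested genes were called. Sftpc had 23237, 26057 and 26834 CPM in vehicle lungs, against 20542, 20531 and 21422 CPM in untreated lungs. All 3 vehicle lungs exceeded all 3 untreated lungs, as held for 9.36% of all tested genes in this direction. The log2 difference was 0.28 ± 0.13, and its p of 0.0379 became 0.396 after adjustment in edgeR's quasi-likelihood test. Sftpa1 and Napsa had log2 differences of 0.34 ± 0.16 and 0.32 ± 0.17, with overlap between the groups and adjusted p of 0.413 and 0.457 in edgeR's test. The remaining genes of the 10 lay between -0.24 for Etv1 and 0.10 for Lamp3.

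At 6 h, 0.101% of all tested genes were called between vehicle and untreated lungs. Abca3 had 383, 407 and 414 CPM in vehicle lungs, against 537, 518 and 511 CPM in untreated lungs. The groups did not overlap, and the log2 difference was -0.38 ± 0.19 with an adjusted p of 0.509 in edgeR's test. Slc34a2 had 1912, 1627 and 2164 CPM in vehicle lungs, against 2543, 2112 and 2568 CPM in untreated lungs. These overlapped by 1 library, with a log2 difference of -0.34 ± 0.16, a p of 0.0491 and an adjusted p of 0.506 in edgeR's test. Sftpd was higher and Nkx2-1 lower in vehicle lungs without overlap, so that 3 of the 10 genes did not overlap, against 16.9% of all tested genes. Their log2 differences were 0.15 ± 0.11 and -0.13 ± 0.14, both with adjusted p above the threshold. Between vehicle lungs at 6 h and at 2 h, where 0.441% of all tested genes were called, none of the 10 was called or had an unadjusted p under 0.05 (9.57% of all tested genes) in edgeR's test, and none was called by DESeq2. Their log2 differences ran from -0.36 for Abca3 to 0.25 for Etv1. With limma voom Abca3 was called at a log2 difference of -0.55, and its adjusted p ran from 0.0258 there to 0.939 over the alternatives. That tool called 1409 of the 16778 tested genes in this comparison.

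Other genes of the type II cell and of the surfactant cycle were described alongside. Of 18 further type II genes, none was called after Egf at 2 h or 6 h. Their median log2 change was 0.01 at 2 h and -0.06 at 6 h, against 0.00 for all tested genes at both times. The smallest p at 6 h belonged to Il33, an alarmin cytokine of type II cells. It averaged 93.1 ± 7.94 CPM in Egf lungs and 117 ± 1.14 CPM in vehicle lungs (SD, n = 4 and 3), with a log2 change of -0.32 ± 0.10 and an adjusted p of 0.809 in edgeR's test. Of 12 genes of lipid synthesis, none was called at either time. Scd1, the stearoyl-CoA desaturase, averaged 2837 ± 842 CPM in Egf lungs at 6 h and 2006 ± 219 CPM in vehicle lungs, with overlap between the groups and an adjusted p of 0.919 in edgeR's test. Among these Egf lungs, replicate 3 held 29153 CPM of hepatocyte markers. Summed genes of lipid synthesis had a median of 9870 CPM in liver and 6870 CPM in lung. The part of liver RNA in the Scd1 values was not tested.

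Of 11 transcription factors of alveolar epithelium, none was called at 2 h, 10 had a positive log2 change and the median was 0.14. Stat3, which carries signals of cytokine and growth factor receptors, had the smallest p of the list. It averaged 295 ± 22.9 CPM in Egf lungs and 202 ± 23.4 CPM in vehicle lungs without overlap, a log2 change of 0.55 ± 0.14 with an adjusted p of 0.101 in edgeR's test. Cebpa, a factor for differentiation of type II cells, averaged 351 ± 14.8 CPM in Egf lungs and 288 ± 23.3 CPM in vehicle lungs, also without overlap and with an adjusted p of 0.319 in edgeR's test. Etv4, a close relative of Etv1, had a log2 change of 0.94 ± 0.63 at mean levels under 1 CPM in both groups and was not called. Of the 6 genes of surfactant clearance, none was called. Csf2ra and Csf2rb, the 2 chains of the receptor through which macrophages are instructed to clear surfactant, had log2 changes of 0.43 ± 0.13 and 0.38 ± 0.14 at 2 h, both without overlap between the groups. Their adjusted p were 0.196 and 0.376 in edgeR's test. Of the 6 clearance genes 5 had a positive log2 change at 2 h, and the lowest was -0.15. The 7 alveolar macrophage markers had a median log2 change of 0.05 at 2 h, and none was called. Which cells the reads of Csf2ra and Csf2rb came from was not tested.

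Of the 12 type I genes, 11 had a positive log2 change at 2 h and none was called. Gprc5a, a membrane receptor of alveolar epithelium, came nearest to the threshold of these lists. It averaged 1117 ± 58.8 CPM in Egf lungs and 853 ± 21.3 CPM in vehicle lungs without overlap, a log2 change of 0.39 ± 0.09 with an adjusted p of 0.0523 in edgeR's test. The 7 club cell genes held none that was called at 2 h or 6 h. At 6 h all 7 had a negative log2 change with a median of -0.49, and summed club cell markers ran from 14957.5 to 40169.6 CPM of library totals across the 17 lungs. Neutrophil markers did change at 2 h. Of 6 tested, 3 rose, namely Csf3r, Cxcr2 and Mmp8, with log2 changes of 1.48 ± 0.26, 1.62 ± 0.35 and 1.22 ± 0.27 and adjusted p of 0.0118, 0.0379 and 0.0389 in edgeR's test. B cell markers had lower values at 2 h, with all 5 log2 changes negative, a median of -0.78 and 3 of 5 at an unadjusted p under 0.05, and none was called. The 5 T cell markers were also all negative, with a median of -0.40, and none was called. With the hepatocyte covariate, edgeR's test called none of the 10 genes in any lung comparison. The part of neutrophils, B cells and T cells in the values of the 10 genes was not tested.

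The standard deviation of log2 CPM within lung groups ran from 0.11 for Sftpd to 0.25 for Abca3, against a median of 0.24 over all tested genes. Sftpb, Sftpc, Sftpd and Lamp3 had the lowest values of the 10, at 0.11 to 0.15, while Napsa, at 0.23, and Abca3 lay near that median. Within groups the genes did not all vary together. Deviations from the group mean were correlated over the 17 lungs for each of the 45 pairs, with p from 100000 permutations within groups and Benjamini-Hochberg adjustment over the 45. Of the pairs, 28 had a positive Pearson r, and 13 passed at an adjusted p under 0.05, all of them positive. Of these 13, 10 also passed by Spearman's rho. No share over pairs of all tested genes stands beside these counts. They therefore cannot show that these genes vary together more than other genes do.

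Most of the pairs that passed lay within 2 sets, which were drawn up after the values were seen. Sftpd belonged to neither, since it passed by Pearson's r with Sftpa1 at r = 0.49 and rho = 0.58 (adjusted permutation p = 0.049 and 0.0582) and with Sftpb at r = 0.81 and rho = 0.71 (adjusted permutation p = 0.0289 and 0.0612). Without the 2 farthest lungs these had r = 0.53 and 0.61. The first set held Sftpa1, Sftpc and Napsa. Sftpa1 and Napsa had r = 0.93 and rho = 0.94 (adjusted permutation p = 0.0018 and 0.0021), and r = 0.90 without the 2 lungs farthest from the median of Sftpa1. Sftpc and Napsa had r = 0.93 and rho = 0.94 (adjusted permutation p = 0.0018 and 0.0021), with r = 0.92 without the 2 farthest lungs. Sftpa1 and Sftpc had r = 0.87 and rho = 0.90 (adjusted permutation p = 0.0018 and 0.00135), with r = 0.84 without the 2 farthest lungs. In plain levels, Napsa had 525, 745 and 425 CPM in the 3 vehicle lungs at 6 h, and Sftpa1 had 6315, 8436 and 5614 CPM in the same 3 lungs. Both were highest in replicate 2 and lowest in replicate 3. Replicate 2 was also the vehicle lung at 6 h with the red-cell sum of 15633 CPM. The lung with the other high red-cell sum, vehicle replicate 3 at 2 h, was likewise the highest of its group in Sftpa1, Sftpc and Napsa. Without these 2 lungs, an alternative chosen after seeing the data, the 3 pairs of this set had r = 0.84 to 0.94 over 15 lungs.

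The other set held Sftpb, Nkx2-1, Slc34a2, Abca3 and Lamp3. Sftpb and Nkx2-1 had r = 0.91 and rho = 0.85 (adjusted permutation p = 0.0018 and 0.00247), with r = 0.76 without the 2 lungs farthest in Sftpb. Slc34a2 passed by both measures with each of the other 4 genes, at r = 0.69 with Sftpb, 0.71 with Nkx2-1, 0.72 with Abca3 and 0.69 with Lamp3. These 4 had r = 0.64, 0.60, 0.75 and 0.51 without the 2 farthest lungs. Of the 10 pairs in this set 8 passed, and the 2 that did not were Abca3 with Lamp3 at r = 0.35 and with Nkx2-1 at r = 0.63 (adjusted permutation p = 0.448 and 0.107). The sets were drawn up from these same pairs, so the values between them describe the sets and do not test a split. None of the 15 pairs between the sets passed, and their r ran from -0.41 to 0.16. Without the 2 lungs with much red-cell RNA this range moved to -0.08 to 0.52, so the low values between the sets rest in part on those lungs. Nkx2-1 had r = -0.11 with Sftpa1, -0.08 with Sftpc and -0.20 with Napsa, none of which passed. Their rho were -0.08, -0.02 and -0.11. Without those 2 lungs the signs turned, with r = 0.35, 0.20 and 0.19 and rho = 0.65, 0.55 and 0.49. Slc34a2 had r = -0.41 with Napsa, which did not pass either, and r = -0.06 without those 2 lungs. Egf replicate 3 at 2 h is an example in plain levels. It held the highest of the 17 values of Sftpb, Abca3, Lamp3, Slc34a2, Nkx2-1 and Sftpd, while its Sftpa1 and Sftpc lay within the range of its group. Its summed club cell markers were 32891 CPM, against 14957.5 to 20256 CPM in the rest of its group. The highest such sum of the 17 lungs, 40169.6 CPM, was in vehicle replicate 3 at 6 h. The part of club cells in these values was not tested. The ratio of Sftpa1 CPM to Slc34a2 CPM ranged from 2.32 to 5.18 over the 17 lungs. It was highest in the 2 lungs with much red-cell RNA, at 5.18 and 4.68. The ratio of Sftpb to Nkx2-1 ranged from 28.5 to 37.7. Etv1 passed with none of the other 9 genes.

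**Figure D3:**
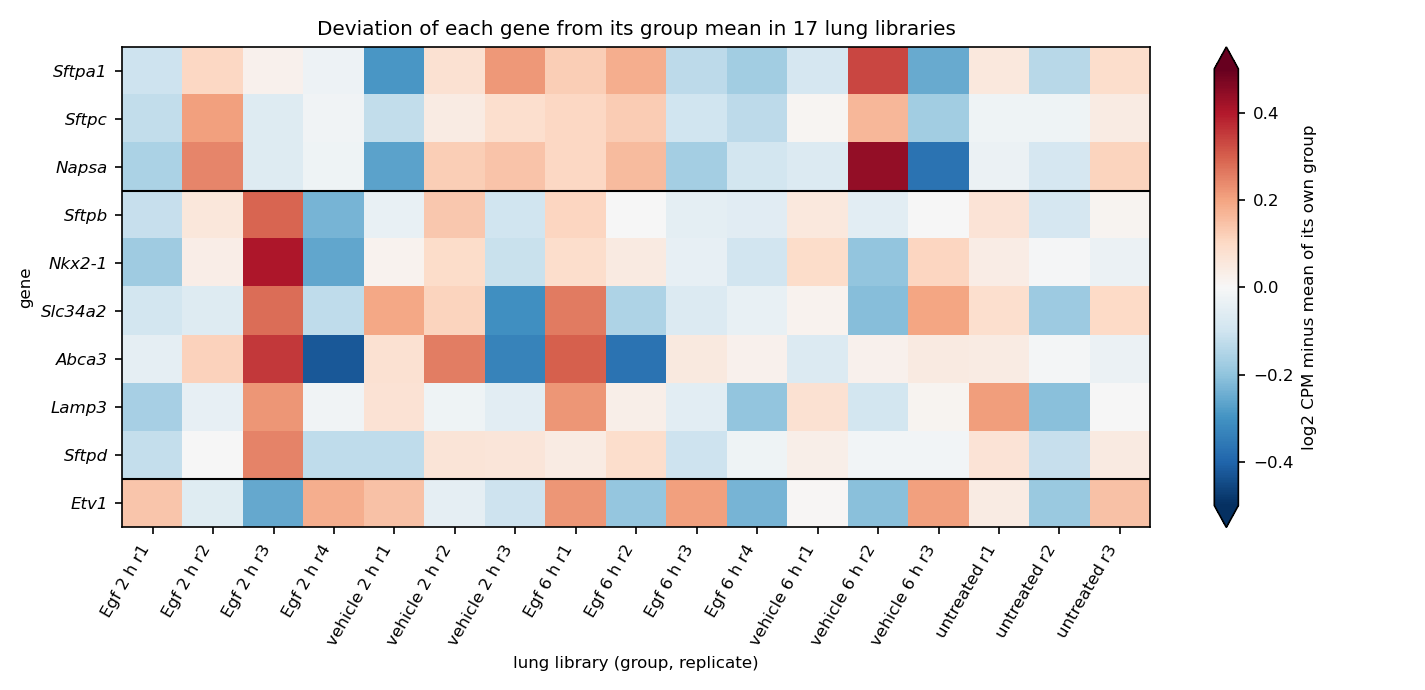
Rows are the 10 genes and columns the 17 lung libraries by group and replicate, and colour gives log2 CPM minus the mean of the gene in its own group (red above, blue below). Lines, drawn after the values were seen, set Sftpa1, Sftpc and Napsa at the top and Etv1 at the bottom apart from the other rows. The sets were drawn up from these same values.

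Across the 17 lungs, the genes whose deviations from the group means were most like the mean of the 10 were Igsf8, Cyp2b10, Rap1gap, Lgi3, Tpcn2 and Osbpl10. Their Pearson r with that mean ran from 0.82 for Osbpl10 to 0.87 for Igsf8, given as a description over 16778 genes with no test. Lgi3, on chromosome 14, is also among the 18 further type II genes and averaged 299 CPM in lung. Of the 10 genes themselves, Sftpb was nearest to the mean at r = 0.89, and Etv1 farthest at r = -0.08. Each of the 10 is part of that mean, which raises its r, so these values do not compare with those of other genes.

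The other organs gave the background. In a single fit of all 68 libraries, untreated lungs were higher than untreated hearts in 8 of the 10 genes, where 32.3% of 18736 tested genes were higher. The exceptions were Napsa and Etv1. Untreated lungs were higher than untreated kidneys in 7 of the 10 genes (28.7% of all tested genes) and lower in 2 (35.1%), and higher than untreated livers in all 10 (38.4%). Nkx2-1 had 0 reads in every untreated kidney and liver library. Against a floor of 3 reads over the 3 libraries, it was at least 2598-fold higher in untreated lungs than in untreated kidneys and at least 1392-fold higher than in untreated livers. Sftpa1 had 0 reads in the untreated kidneys, for which the same floor gave at least 82037-fold. These floors cover counting error only.

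Napsa, Abca3 and Etv1 were present in kidney at or above their lung levels. Napsa, which is also made in kidney tubules, had a median of 524 TPM in lung and of 4798 TPM in kidney. Untreated lungs were lower than untreated kidneys by a log2 difference of -3.78 ± 1.40, with an adjusted p of 0.0163 in edgeR's test. Abca3 had a median of 145 TPM in lung and of 147 TPM in kidney, with a log2 difference between untreated organs of -0.31 ± 0.38 that did not pass. Liver held Abca3 at a median of 21.1 TPM. Etv1 had a median of 2.33 TPM in lung, 1.36 TPM in heart, 3.81 TPM in kidney and 0.0835 TPM in liver. It was lower in untreated lungs than in untreated kidneys by a log2 difference of -0.73 ± 0.24, with an adjusted p of 0.00623 in edgeR's test.

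Surfactant protein reads also occurred in libraries of other organs. The 4 surfactant protein genes together gave 0 to 137 CPM of library totals in heart, with 7 of 17 hearts over 10 CPM, against 31604 to 41672 CPM in lung. The highest heart, Egf replicate 3 at 2 h, had 3421 such reads, and Sftpc made up 65.7% of them (95% exact interval 64.1% to 67.3%). The other hearts over 10 CPM had shares of 65.9% to 69.1%, except untreated replicate 1. That heart had 882 such reads and a Sftpc share of 48.4% (95% exact interval 45.1% to 51.8%). These exact intervals cover counting error only and not the spread between libraries. In lung, the share of Sftpc was 60.6% to 66.2%. In kidney, vehicle replicate 1 at 2 h stood apart with 31.0 CPM and a Sftpc share of 67.0%, while the other 16 kidneys had at most 1.08 CPM. Liver differed in composition. Sftpd gave 6 to 30 reads in every liver library, while Sftpb gave at most 1 read and Nkx2-1 gave 0 in all 17. Sftpc gave at most 8 reads, with 0 in 12 of 17 livers, and Sftpa1 at most 4 reads, with 0 in 9.

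Napsa in heart was set beside kidney tubule markers and surfactant protein genes, and its source was not tested. The highest heart, vehicle replicate 1 at 2 h, had 473 CPM of Napsa with 2980 CPM of kidney tubule markers and 10.2 CPM of surfactant protein genes. The 7 hearts with over 50 CPM of tubule markers, a limit chosen after the values were seen, had 11.6 to 473 CPM of Napsa, which was 10.1% to 22.6% of their tubule sum. In kidney itself Napsa was 17.1% to 23.9% of that sum. The other 10 hearts had 0.350 to 3.75 CPM of Napsa, with tubule sums of 0.825 to 12.9 CPM. There Napsa was 22.2% to 131% of the tubule sum, from low values of both.

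**Figure D4:**
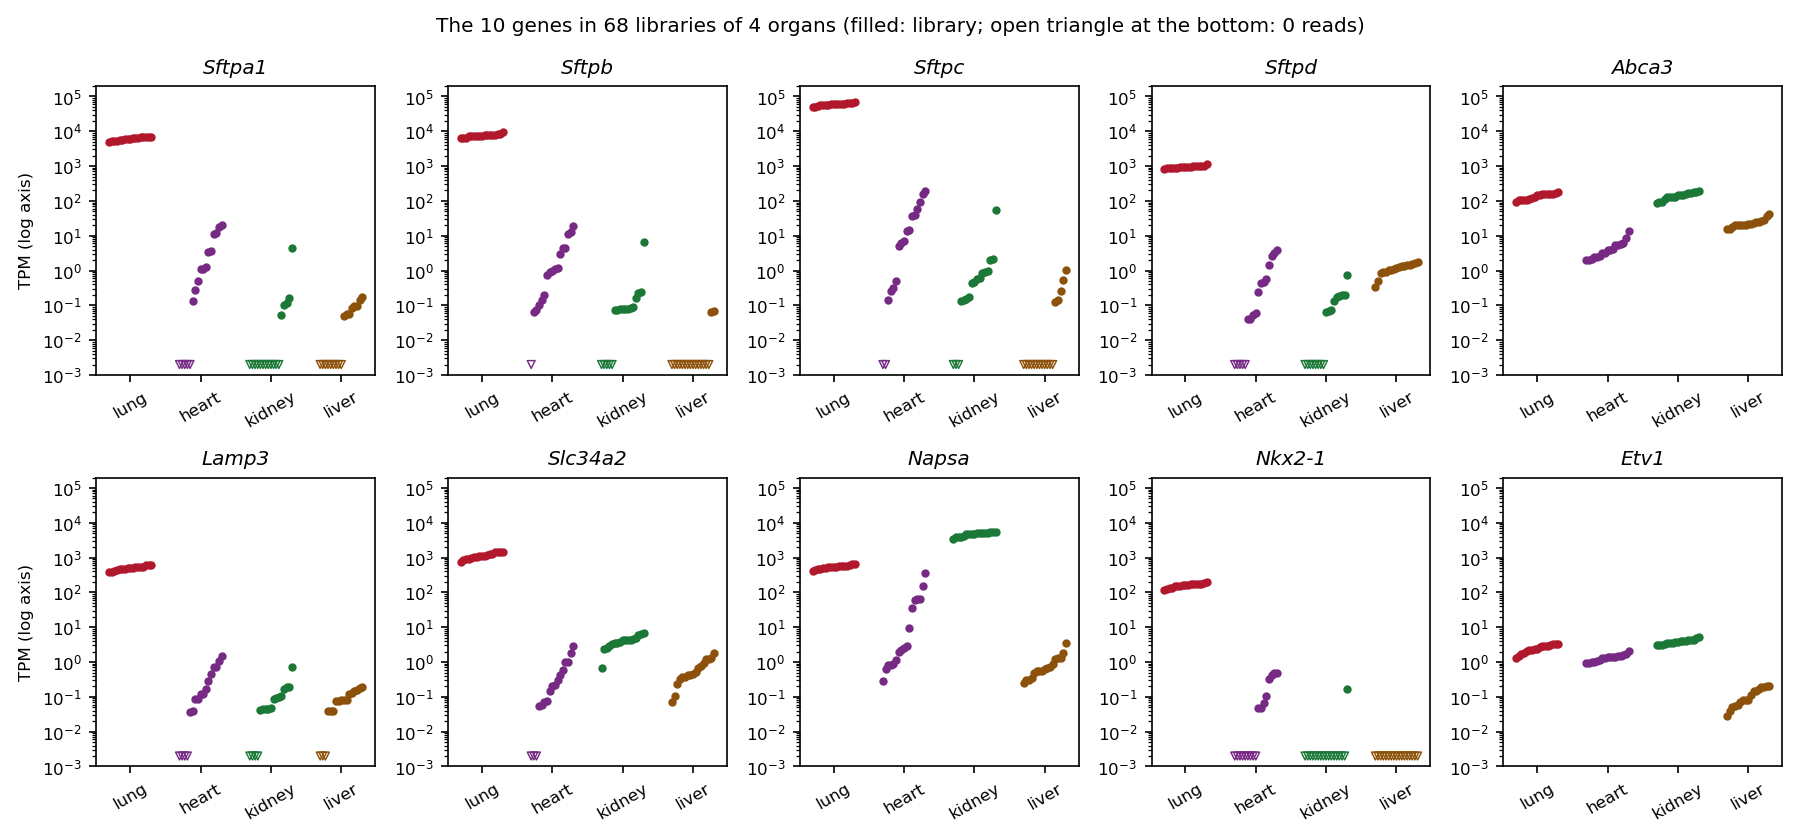
Each panel shows 1 gene in the 17 libraries of lung, heart, kidney and liver, sorted within an organ, as TPM on a log axis. Open triangles at the lower edge are libraries with 0 reads. Napsa and Abca3 reach kidney medians of 4798 and 147 TPM, and Napsa in single hearts comes near the lung level, whereas the highest heart for Sftpc, at 197 TPM, stays far below the lowest lung, at 50681 TPM.

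Egf was also set against vehicle in the other organs for the members that passed the filter there, 10 in heart and 5 each in kidney and liver. None was called at 2 h or 6 h by edgeR or DESeq2. In heart, several passed the filter through few libraries, and Nkx2-1 had 0 reads in 9 of 17 hearts and Sftpd in 5. The intervals in heart reached from -9.13 to 4.59 at 2 h and from -5.39 to 10.5 at 6 h. For such genes the heart tests cannot show whether Egf had an effect. An unadjusted p under 0.05 was reached in edgeR's test by 2 of the 5 in kidney at 2 h, Sftpc and Slc34a2, and by none elsewhere. In hearts, 0.211% and 0.0128% of all tested genes were called at 2 h and 6 h, and 7.64% and 10.5% had an unadjusted p under 0.05. In kidneys these shares were 0.256% and 0%, and 7.82% and 6.3% before adjustment, with 986 genes at 6 h, where DESeq2 called 37. In livers they were 3.92% and 0.0883%, and 14.7% and 8.53% before adjustment. Etv1 in heart had 8.57, 5.96, 7.69 and 6.22 CPM in Egf hearts at 2 h, against 9.63, 8.21 and 9.97 CPM in vehicle hearts. Of the Egf hearts, 1 lay within the vehicle range, and the log2 change was -0.38 ± 0.18 with a p of 0.0511 and an adjusted p of 0.635 in edgeR's test. In kidney, Etv1 averaged 21.4 ± 4.34 CPM in Egf kidneys at 2 h and 20.3 ± 2.72 CPM in vehicle kidneys, a log2 change of 0.08 ± 0.15. Sftpc had 1, 6, 13 and 14 reads in Egf kidneys at 2 h, against 367, 4 and 6 reads in vehicle kidneys. Its log2 change of -3.65 ± 1.08, with an adjusted p of 0.241 in edgeR's test, goes with the 367 reads of vehicle replicate 1, the kidney that stood apart in surfactant protein reads, and the groups overlapped. Slc34a2 had 9.19, 12.8, 7.38 and 8.49 CPM in Egf kidneys at 2 h, against 7.89, 1.46 and 4.83 CPM in vehicle kidneys. They overlapped by 1 library, with a log2 change of 0.99 ± 0.38 and an adjusted p of 0.458 in edgeR's test. With limma voom, run for these organs after the values were seen, Slc34a2 in kidney was called at a log2 change of 1.06 and an adjusted p of 0.0324. That tool called 574 of the 15654 genes tested in kidney at 2 h. Whether the Egf effect on these genes differed between organs was not tested.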

How the data were processed

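The authors deposited raw counts of reads per gene for 68 libraries, 17 from each organ, made with HISAT2 2.0.5 and featureCounts 1.5.0-p3 on mm39, per the submitters' processing notes. Which trimming, counting options and annotation release were used was not given in the sources used here. Counts were grouped by the labels. Within each organ, genes with low counts were removed by filterByExpr, libraries scaled by TMM, and groups compared with edgeR 4.0.16's quasi-likelihood F test in R 4.3.3, with Benjamini-Hochberg adjustment over all genes tested. Organs were compared in 1 fit of all libraries. DESeq2 1.42.0 and limma 3.58.1 voom were alternatives, beside other scaling, no filter, a replicate block, a hepatocyte covariate and leaving out libraries. The fits were tested on simulated data. TPM used the deposited gene lengths, and log2 CPM a prior count of 2.

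All 10 genes were named in every lung comparison. Of the other lists, up to 4 genes by smallest p were eligible, with any that passed, and the 6 genes most like the mean of the 10 by Pearson r were named. The members and lists were chosen with earlier results of these data known. Lung libraries held 16436692 to 21430960 counted reads.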

Additional observations from a re-analysis of the deposited data

Results flagged for a closer look

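Slc34a2 in lung reached 2803 CPM in replicate 3 of Egf at 2 h, and the other 3 Egf lungs at 2 h had 2168, 2209 and 2112 CPM. Its gap to the nearest of these, set against the range of the group, was above Dixon's 95% critical value for 4 samples. It was 1 of 20 groups of 4 lungs examined for the 10 genes, and chance alone marks about 1 group in 20. The same library had the highest club cell sum of its group, 32891 CPM, whose part in this value was not tested.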

How the results depend on the processing

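With edgeR, none of the 10 genes was called after Egf in lung under other scaling, without a filter on low counts, with the compared groups alone, with either use of the hepatocyte markers, or without any 1 library. The exceptions came from the tools. DESeq2 and limma voom each called 1 gene of the 10 in lung at 2 h, which was Etv1. They called 314 and 822 of all tested genes there. Between vehicle lungs at 6 h and 2 h, limma voom called 1, which was Abca3, and 1409 of all tested genes. In kidney at 2 h limma voom called 1, Slc34a2, and 574 of all tested genes. The median over the 10 genes of the Egf effect at 6 h minus that at 2 h was -0.04, against 0.15 with limma voom. The cause of these differences was not tested. Calls between untreated organs stayed within 8 to 9 of 10 for heart and kidney and 9 to 10 for liver. Depth limits what can be said of Nkx2-1 in untreated kidneys and livers and of Sftpa1 in untreated kidneys, which had 0 reads, and the spread between libraries limits what can be said of changes within the printed intervals. 

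Of the 60 single-gene log2 changes in lung, 36 changed sign under at least 1 alternative. None of these values was called, the main log2 changes were at most 0.12 in size, and the cause was not tested. The hepatocyte covariate gave, for Egf over vehicle at 2 h, Sftpa1 0.024, Sftpc 0.039 and Nkx2-1 0.076. For the Egf effect at 6 h minus that at 2 h it gave Sftpb -0.083 and Nkx2-1 -0.0022. For vehicle at 6 h over untreated it gave Etv1 -0.030. For vehicle at 6 h over vehicle at 2 h it gave Sftpb 0.030. Leaving out the 3 lungs above 2000 CPM of hepatocyte markers gave, for Egf over vehicle at 2 h, Sftpa1 0.015, Sftpc 0.026 and Nkx2-1 0.026. For Egf over vehicle at 6 h it gave Sftpa1 0.17, Sftpc 0.088, Sftpd 0.0083, Slc34a2 -0.051 and Napsa 0.23. For the Egf effect at 6 h minus that at 2 h it gave Sftpa1 0.16, Sftpb -0.030, Sftpc 0.062, Napsa 0.14 and Nkx2-1 -0.020. For vehicle at 6 h over vehicle at 2 h it gave Sftpb 0.0028 and Nkx2-1 0.018. That alternative was chosen after seeing the data. The limma voom fit gave, for Egf over vehicle at 2 h, Sftpb -0.057, Sftpd -0.00085, Abca3 -0.13, Slc34a2 -0.060 and Napsa -0.0028. Its values for Egf over vehicle at 6 h were Sftpa1 0.12, Sftpc 0.055, Lamp3 0.00078 and Napsa 0.13. Its values for the Egf effect at 6 h minus that at 2 h were Sftpa1 0.16, Sftpc 0.067, Slc34a2 0.15 and Napsa 0.13. Its values for vehicle at 2 h over untreated were Abca3 0.15 and Nkx2-1 0.018. Scaling without the 10 genes and the hepatocyte markers gave, for vehicle at 6 h over untreated, Etv1 -0.00059.

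Same-numbered lung libraries did not deviate together in every pair, with correlations of -0.66 to 0.71 over the pairs of Egf and vehicle, so the numbers were not taken to pair the libraries. With the replicate number as a block, 0 of the 10 genes were called in each lung comparison, and Etv1 at 2 h had a log2 change of -0.57 with an adjusted p of 0.177, within 0.0287 to 0.426 over its alternatives. The replicate block gave, for Egf over vehicle at 2 h, Sftpa1 0.025, Sftpc 0.015 and Nkx2-1 0.019. For Egf over vehicle at 6 h it gave Sftpd 0.0091.

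Leaving out 1 library at a time, the changes that crossed 0 had these ranges. Egf over vehicle at 2 h spanned -0.14 to 0.085 for Sftpa1, -0.021 to 0.16 for Sftpb, -0.079 to 0.035 for Sftpc, -0.0033 to 0.13 for Sftpd, -0.081 to 0.22 for Abca3, -0.027 to 0.11 for Lamp3, -0.082 to 0.17 for Slc34a2, -0.074 to 0.11 for Napsa and -0.18 to 0.054 for Nkx2-1. Egf over vehicle at 6 h spanned -0.18 to 0.13 for Sftpa1, -0.12 to 0.054 for Sftpc, -0.047 to 0.025 for Sftpd, -0.13 to 0.011 for Lamp3, -0.077 to 0.13 for Slc34a2, -0.24 to 0.17 for Napsa, -0.0091 to 0.14 for Nkx2-1 and -0.17 to 0.034 for Etv1. The Egf effect at 6 h minus that at 2 h spanned -0.17 to 0.14 for Sftpa1, -0.061 to 0.12 for Sftpb, -0.11 to 0.059 for Sftpc, -0.057 to 0.25 for Abca3, -0.15 to 0.12 for Slc34a2 and -0.29 to 0.13 for Napsa. Vehicle at 2 h over untreated spanned -0.0023 to 0.11 for Sftpb, -0.15 to 0.12 for Abca3 and -0.22 to 0.010 for Slc34a2. Vehicle at 6 h over untreated spanned -0.00019 to 0.076 for Sftpb, -0.20 to 0.0070 for Lamp3 and -0.096 to 0.11 for Etv1. Vehicle at 6 h over vehicle at 2 h spanned -0.27 to 0.036 for Sftpa1, -0.086 to 0.043 for Sftpb, -0.00082 to 0.093 for Sftpd, -0.29 to 0.13 for Napsa and -0.14 to 0.013 for Nkx2-1.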
